A study of Mus musculus with 6 samples.

Results

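The SLC25 genes encode the mitochondrial carriers, and 38 of them were compared here between the gastrocnemius muscles of mice with a colon tumor and of mice without one. The members are the genes in the deposited expression table whose Entrez identifier belongs to a mouse symbol starting with Slc25a and a number. The citrate carrier Slc25a1 and the carnitine/acylcarnitine carrier Slc25a20 were left out, and the rule uses gene symbols only. The 38 genes stand among 13363 listed genes. Of 47 Slc25a symbols in the RefSeq annotation, 40 were listed, and Slc25a2, Slc25a13, Slc25a21, Slc25a31, Slc25a41, Slc25a43 and Slc25a54 were not analysed here.

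Mitochondrial carriers are small proteins of the inner mitochondrial membrane, built from repeated pairs of membrane-spanning helices, which exchange or import solutes that cannot cross that membrane alone. They bring ADP and phosphate to the ATP synthase and carry ATP out, and they move dicarboxylates, amino acids, nucleotides, cofactors and iron. Skeletal muscle is known for very high levels of the ADP/ATP translocase encoded by Slc25a4 and of the phosphate carrier encoded by Slc25a3. A few family members lie elsewhere, such as Slc25a46 in the outer membrane and Slc25a17 in peroxisomes.

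RNA was sequenced from the gastrocnemius of 3 mice that carried a C26 tumor and of 3 control mice. All were male BALB/c mice bought at 6 weeks of age and acclimated for 1 week. C26 is a mouse colon adenocarcinoma line that causes muscle wasting, and 500000 cells were injected under the skin of the right flank. The controls were not inoculated, and no other allele or agent distinguished the groups. C26 mice are thus a model made with 1 tumor line in 1 strain and sex, and the muscle was sampled as whole tissue. A lower level of a transcript in such tissue can come from fewer cells of a type or from less RNA per cell, which cannot be told apart. The labels number the muscles but do not describe separate cultures or litters, so the p-values measure only the spread between these samples.

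Expression was given as FPKM, a read count scaled by transcript length and by sequencing depth, and the number of reads is not known. Over all genes of a muscle, FPKM summed to 531061 to 585169 in the C26 group and to 626992 to 688300 in the control group. All 15 skeletal muscle markers were listed (1 called higher, 2 called lower), and their summed FPKM was 71069 to 105791 in C26 and 143181 to 153734 in control muscles. The third muscle of each group stood apart from its companions. C26 replicate 3 had a myoglobin (Mb) level of 4906 FPKM, against 275 and 74.0 FPKM in the other C26 muscles. Control replicate 3 held 134 FPKM of the B cell gene Cd79b, which was under 1 FPKM in every other muscle. Summed FPKM of the 9 listed adipocyte markers was 302 to 478 in C26 and 749 to 5627 in control muscles, and 7 of them were called lower. Among 8 fibroblast markers 5 were called lower, with sums of 168 to 231 against 408 to 548 FPKM. The 4 listed erythroid markers were all called higher, with sums of 615 to 1188 against 329 to 508 FPKM. Of 9 listed immune markers 2 were called higher (15.7 to 256 against 6.72 to 202 FPKM, with 247 FPKM of the macrophage gene Cd68 in C26 replicate 2), and of 6 endothelial markers 1 was called lower (39.7 to 48.2 against 50.2 to 68.7 FPKM). No listed marker was at 0, and Ucp1, Adrb3, Hbb-bt, Slc4a1, Epb42, Ahsp, Cd79a, Ms4a1, Cd3e and Cd8a were not analysed here. The part of these cell types in the carrier values was not tested.

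The comparison asked which carrier transcripts differed between tumor-bearing and control muscle. The FPKM were rescaled to the same sum in every muscle (TPM) and then divided by a scaling factor for each muscle (TMM, 0.903 to 1.08). TPM of carriers are given after this division, so sums differ between muscles. These values were tested as log2(TPM + 1) by limma with Benjamini-Hochberg adjustment over all 13363 genes. A gene was called at an adjusted p under 0.05, and every fold change is C26 over control on this log2(TPM + 1) scale, which understates changes of genes with low values. Among the 38 carriers, 8 were higher in C26 muscle (21.1%), 6 were lower (15.8%) and 24 were not called. The same test called 19.4% of all genes higher and 14.5% lower, shares near those of the carriers. In either direction the shares were 36.8% of the carriers and 33.8% of all genes. The median log2 fold change was 0.13 for the carriers and -0.05 for all genes. With FPKM as deposited, the carrier calls were 8 higher and 8 lower, and the all-gene calls were 1678 higher and 2504 lower in place of 2589 and 1932.

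A log2 fold change of at least 1 was reached by 6 called carriers upward (Slc25a34, Slc25a33, Slc25a25, Slc25a28, Slc25a38 and Slc25a44), where 10.2% of all genes were so called. It was reached by 4 downward, among them Slc25a10, Slc25a35 and Slc25a37, where the share of all genes was 7.36%. Changes above 4-fold were found in 3 carriers upward and 2 downward, against 1.76% and 1.73% of all genes. C26 and control FPKM were fully separate for 20 of the 38 carriers (52.6%), and the same held for 53.3% of all genes. Leaving out C26 replicate 1 lowered the calls to 5 higher and 3 lower, and leaving out control replicate 1 lowered them to 5 and 4. All-gene calls fell in the same fits, to 1127 higher and 669 lower and to 1151 and 726 of 13363. Without either replicate 3 muscle, an alternative chosen after seeing the data, the calls were 10 higher and 10 lower, beside 3780 and 2805 of all 13363 genes.

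**Figure D1:**
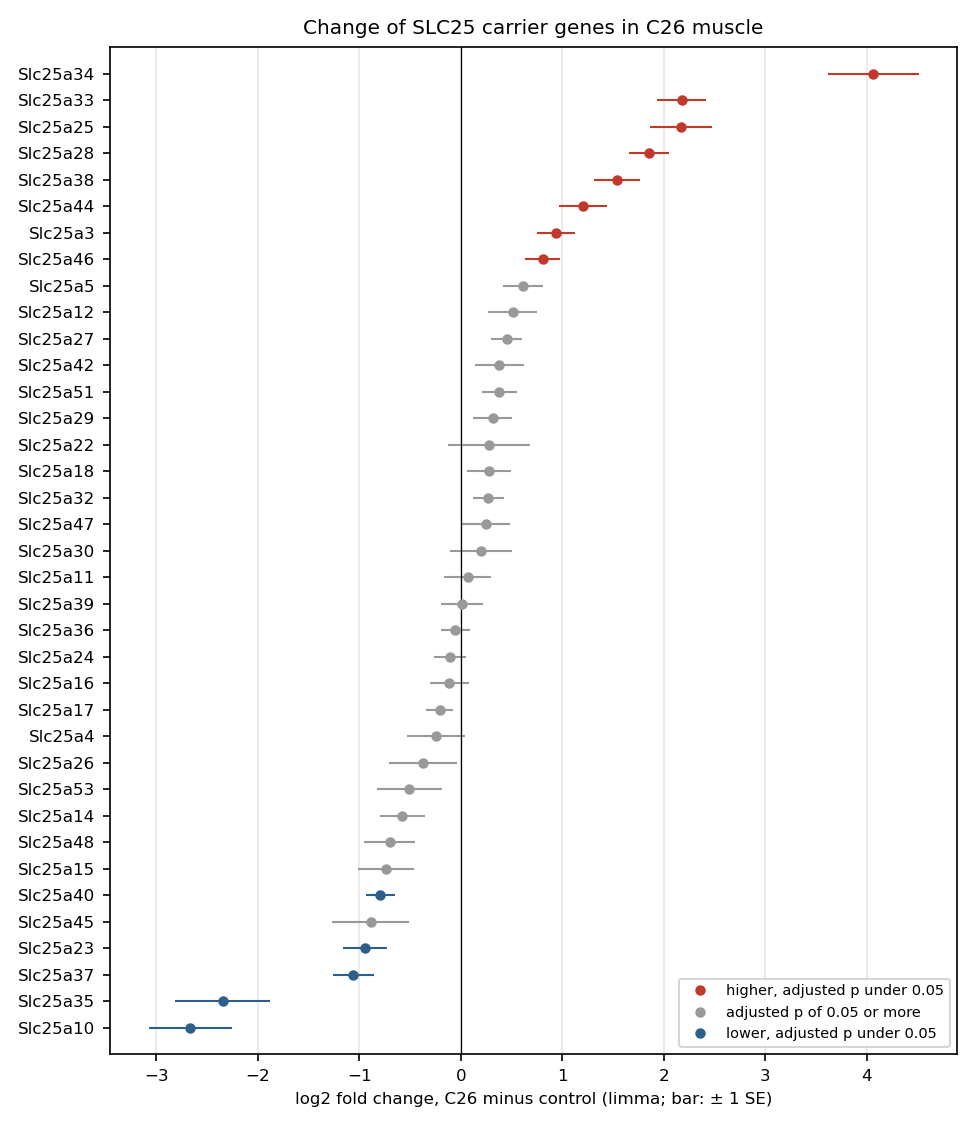
Log2 fold change of 37 of the 38 SLC25 genes in C26 against control muscle on the log2(TPM + 1) scale, with bars for 1 standard error and colors for the limma call (adjusted p under 0.05). The values run from -2.67 for Slc25a10 to 4.06 for Slc25a34, with 8 genes called higher (red), 5 called lower (blue) and 24 not called (grey).

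The promoters of 4 called carriers with large changes are shown first, so that the values below can be read beside them. Slc25a35 had no entry. The sequences are from RefSeq (GRCm38.p6). They hold the 250 bases before the start site, given 5' to 3' on the strand of the gene, with letters that match a searched motif in capitals. Slc25a34 lies on the minus strand at chr4:141623835-141624084, Slc25a33 on the minus strand at chr4:149774268-149774517, Slc25a25 on the minus strand at chr2:32424067-32424316 (1 of its 3 start sites), and Slc25a10 on the plus strand at chr11:120491587-120491836.
Slc25a34: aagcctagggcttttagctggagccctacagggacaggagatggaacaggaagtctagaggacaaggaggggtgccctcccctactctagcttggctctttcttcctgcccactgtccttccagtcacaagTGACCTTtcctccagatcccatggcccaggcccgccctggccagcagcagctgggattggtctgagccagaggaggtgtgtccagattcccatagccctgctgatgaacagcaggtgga
Slc25a33: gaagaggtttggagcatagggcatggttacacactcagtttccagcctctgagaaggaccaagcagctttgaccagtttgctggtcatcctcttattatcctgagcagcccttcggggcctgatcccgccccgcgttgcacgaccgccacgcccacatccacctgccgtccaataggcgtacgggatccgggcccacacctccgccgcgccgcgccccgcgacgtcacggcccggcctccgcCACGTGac
Slc25a25: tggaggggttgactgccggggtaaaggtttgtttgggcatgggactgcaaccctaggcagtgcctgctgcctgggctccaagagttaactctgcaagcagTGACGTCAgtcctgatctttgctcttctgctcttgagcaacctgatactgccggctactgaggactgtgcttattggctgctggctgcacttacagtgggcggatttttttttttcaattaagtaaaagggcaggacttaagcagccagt
Slc25a10: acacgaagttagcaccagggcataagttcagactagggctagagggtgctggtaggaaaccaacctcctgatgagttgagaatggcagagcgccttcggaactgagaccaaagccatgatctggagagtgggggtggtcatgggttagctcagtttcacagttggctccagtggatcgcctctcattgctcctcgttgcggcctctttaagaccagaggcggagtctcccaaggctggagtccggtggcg
Windows of 300 bases, with 250 before and 50 after the start site, were found for 29 of the 38 carriers (38 windows). Both strands were searched. The NRF1 core GCATGCGC, the extended estrogen-related receptor site TCAAGGTCA and the FoxO site TGTTTAC matched in 0 of the 38 windows, and these letters occur in 2.71%, 0.423% and 3.65% of 32851 promoter windows. A further 3 motifs were added after that search, namely the shorter receptor site AAGGTCA (part of TCAAGGTCA), the cAMP response element and the E-box. AAGGTCA matched in the Slc25a34 window only, on the opposite strand 119 bases before the start site (4.72% of all windows). The cAMP response element TGACGTCA was found in Slc25a25 at 150 bases before the start site and in Slc25a36 (1.79% of all windows). For Slc25a25 this was the window shown, picked because it held the most matches, and its other windows held none. The E-box CACGTG was found in Slc25a33 at 8 bases before the start site and in Slc25a14, Slc25a15 and Slc25a36 (7.15% of all windows). The Slc25a10 window held none of the 6 motifs. These matches are letters in a window and were not tested as binding sites.

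Slc25a34 and Slc25a35, which have no settled substrate, were placed by hand with the carriers of dicarboxylates and those that resemble the uncoupling proteins. Of these 7 genes, Slc25a34 rose, Slc25a10 and Slc25a35 fell, and 4 were not called (median log2 fold change 0.07). The called share was 42.9%, beside 33.8% of all genes. Slc25a34 (Entrez 384071) had the highest log2 fold change of the 38 carriers. Its level was 37.2, 39.3 and 33.8 FPKM in the C26 muscles and 1.03, 4.44 and 1.33 FPKM in the control muscles. Each C26 muscle stood far above each control muscle, and the spread within C26 was small beside the gap. The mean was 36.8 ± 2.81 FPKM in C26 and 2.27 ± 1.89 FPKM in control (SD, n = 3), a log2 fold change of 4.06 (standard error 0.45), or 16.7-fold (limma with Benjamini-Hochberg adjustment, adjusted p = 0.00331). Leaving out each muscle in turn gave log2 fold changes from 3.74 to 4.62.

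Slc25a35 (Entrez 71998), the closest relative of Slc25a34, went the other way. It measured 0.29, 0.08 and 1.42 FPKM in C26 and 6.18, 6.81 and 3.82 FPKM in control muscles. The groups did not overlap, and both replicate 3 muscles lay nearest to the other group. The log2 fold change was -2.35 (standard error 0.47, adjusted p = 0.0134). With 0.1 in place of 1 added before the logarithm it was -3.52. The call was lost without C26 replicate 1 (adjusted p = 0.0562) and without control replicate 1 (adjusted p = 0.0545). About 31.3% of the exon bases of Slc25a35 overlap Rangrf on the opposite strand. The counting is not stated to use strand, so reads from those bases cannot be told apart between the 2 genes. Rangrf measured 35.7, 32.6 and 46.6 FPKM in C26 and 52.7, 56.4 and 55.7 FPKM in control muscles, with a log2 fold change of -0.32 that was not called (adjusted p = 0.260).

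Slc25a10 (Entrez 27376), the dicarboxylate carrier, exchanges malate and succinate for phosphate and is abundant in fat and liver. Its level was 0.33, 0.42 and 0.40 FPKM in C26 and 9.65, 8.18 and 3.02 FPKM in control muscles. The C26 muscles were alike and low, and among the controls replicate 3 was the lowest. The fitted log2 fold change was -2.67 (standard error 0.41, adjusted p = 0.00685), and with a pseudocount of 0.1 in place of 1 it was -3.63. The call held without each muscle in turn. The summed adipocyte markers were also lower in C26, at 440, 302 and 478 FPKM against 5627, 2711 and 749 FPKM in control muscles. Control replicate 3 was again the lowest control. Within C26 the order differed, since replicate 2 had the lowest marker sum and the highest Slc25a10. The part of these markers in the Slc25a10 difference was not tested.

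Slc25a11 (Entrez 67863), which exchanges malate for 2-oxoglutarate in the malate-aspartate shuttle, was the third most abundant carrier. It measured 114, 129 and 166 FPKM in C26 and 141, 170 and 139 FPKM in control muscles. The groups overlapped, and the log2 fold change of 0.07 (standard error 0.23, adjusted p = 0.832) changed sign with the scaling (-0.15 with FPKM as deposited). The uncoupling protein-like genes Slc25a27 (0.45, adjusted p = 0.0616), Slc25a30 (0.20, adjusted p = 0.633) and Slc25a14 (-0.58, adjusted p = 0.0834) were low in every muscle, between 0.61 and 5.10 FPKM, and were not called. Ucp3, an uncoupling protein of muscle of the same family whose mouse symbol has no Slc25a number, measured 173, 169 and 213 FPKM in C26 and 62.4, 56.9 and 43.0 FPKM in control muscles. It was called higher with a log2 fold change of 1.99 (standard error 0.23, adjusted p = 0.00355).

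Among the 7 carriers grouped under ATP, ADP and phosphate, Slc25a3 and Slc25a25 rose, Slc25a23 fell, and 4 were not called (median log2 fold change 0.25). Those called were 42.9% of the group, where 33.8% of all genes were called. Slc25a4 (Entrez 11739) encodes the ADP/ATP translocase of heart and muscle and was the most abundant member. Its level was 1818, 2165 and 3497 FPKM in C26 and 3083, 3426 and 3415 FPKM in control muscles. C26 replicates 1 and 2 lay below the controls, whereas C26 replicate 3, the muscle with the high myoglobin, lay above them. The mean was 2493 ± 886 FPKM in C26 and 3308 ± 195 FPKM in control (SD, n = 3), and the log2 fold change of -0.25 (standard error 0.29) was not called (adjusted p = 0.522). Without both replicate 3 muscles it was -0.48 (adjusted p = 0.0638).

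Slc25a3 (Entrez 18674), the phosphate carrier, moved upward. It measured 991, 1094 and 800 FPKM in C26 and 530, 663 and 550 FPKM in control muscles. All C26 muscles were above all controls, with C26 replicate 3 the lowest of the C26 group. The log2 fold change was 0.94 (standard error 0.19, adjusted p = 0.0136). Means were 962 ± 149 FPKM in C26 and 581 ± 71.7 FPKM in control (SD, n = 3). The call was lost without either of 2 single muscles (highest adjusted p = 0.0579) and under quantile normalization (log2 fold change 0.69, adjusted p = 0.0548).

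**Figure D2:**
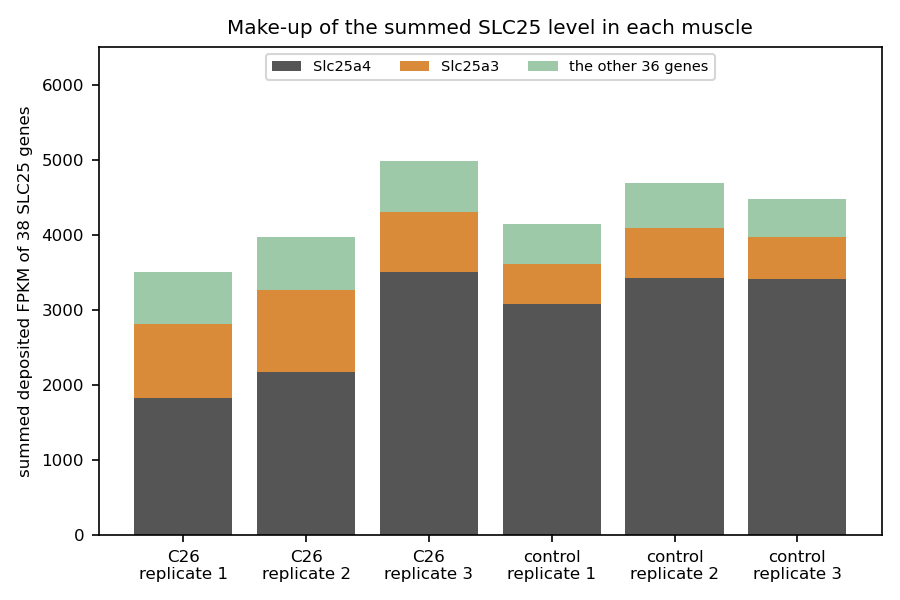
Summed deposited FPKM of the 38 SLC25 genes in each of the 3 C26 and 3 control muscles, stacked as Slc25a4, Slc25a3 and the other 36 genes together. Slc25a4 fills 51.9, 54.5 and 70.2% in C26 and 74.4, 73.2 and 76.3% of the bar in control muscles.

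These 2 genes made up most carrier transcripts, as the stacked bars by muscle show. Slc25a4 took 58.9 ± 9.87% of the summed carrier FPKM in C26 and 74.6 ± 1.56% in control muscles (SD, n = 3). The share of Slc25a3 was 24.0 ± 6.87% in C26 and 13.1 ± 0.973% in control. Neither share overlapped between groups, and each gave p = 0.1 in an exact two-sided permutation test, the smallest value that 3 muscles against 3 allow. The ratio of Slc25a4 to Slc25a3 was 1.83, 1.98 and 4.37 in C26 and 5.82, 5.17 and 6.21 in control muscles (exact permutation p = 0.1). The other 36 genes summed to 1225, 1220 and 1300 TPM in C26 and 797, 1004 and 741 TPM in control (exact permutation p = 0.1). The whole family summed to 7478 ± 1720 TPM in C26 and 6866 ± 927 TPM in control (SD, n = 3, exact permutation p = 0.7). The direction of that sum depends on the unit, since the summed FPKM was 4152 ± 758 in C26 and 4435 ± 271 in control (SD, n = 3, exact permutation p = 0.6). Before the TMM division the family held 0.748% of all TPM in C26 and 0.677% in control (means, n = 3, exact permutation p = 0.4).

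Slc25a25 (Entrez 227731), Slc25a23 (Entrez 66972) and Slc25a24 encode calcium-binding carriers that exchange ATP-Mg for phosphate and so set the adenine nucleotide content of the matrix. Slc25a25 measured 24.1, 35.3 and 46.6 FPKM in C26 and 6.62, 9.93 and 8.63 FPKM in control muscles. The C26 muscles were all above the controls but differed among themselves. In log2 terms the gene rose by 2.17 (standard error 0.31, adjusted p = 0.00575), or 4.51-fold. Slc25a23 measured 1.96, 2.73 and 2.89 FPKM in C26 and 7.36, 6.31 and 5.09 FPKM in control muscles, without overlap. Its log2 fold change was -0.95 (standard error 0.21, adjusted p = 0.0187), and the call was lost in 4 of 6 fits that left out 1 muscle. Slc25a24 was very low, at 0.30, 0.24 and 0.21 FPKM in C26 and 0.35, 0.48 and 0.25 FPKM in control. Its groups overlapped, and it was not called (log2 fold change -0.11, adjusted p = 0.613).

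Slc25a5, the ADP/ATP translocase of proliferating and many other cells, measured 63.3, 54.7 and 46.2 FPKM in C26 and 34.8, 36.6 and 54.2 FPKM in control muscles. Only control replicate 3, the muscle with B cell transcripts, reached into the C26 range. The log2 fold change was 0.61 (standard error 0.19, adjusted p = 0.0516), and the gene was called higher without control replicate 3 (adjusted p = 0.0268), without C26 replicate 3 (0.0428), without both (0.00912) and with an intensity trend (0.0483). Of its 50-base stretches 46.6% also occur in other genes, most often Gm5560, so its level is uncertain. Slc25a47, best known from liver, was between 0.83 and 1.84 FPKM and was not called (log2 fold change 0.25, adjusted p = 0.446). It was placed by hand in the ATP, ADP and phosphate group, and its value is the median of that group.

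**Figure D3:**
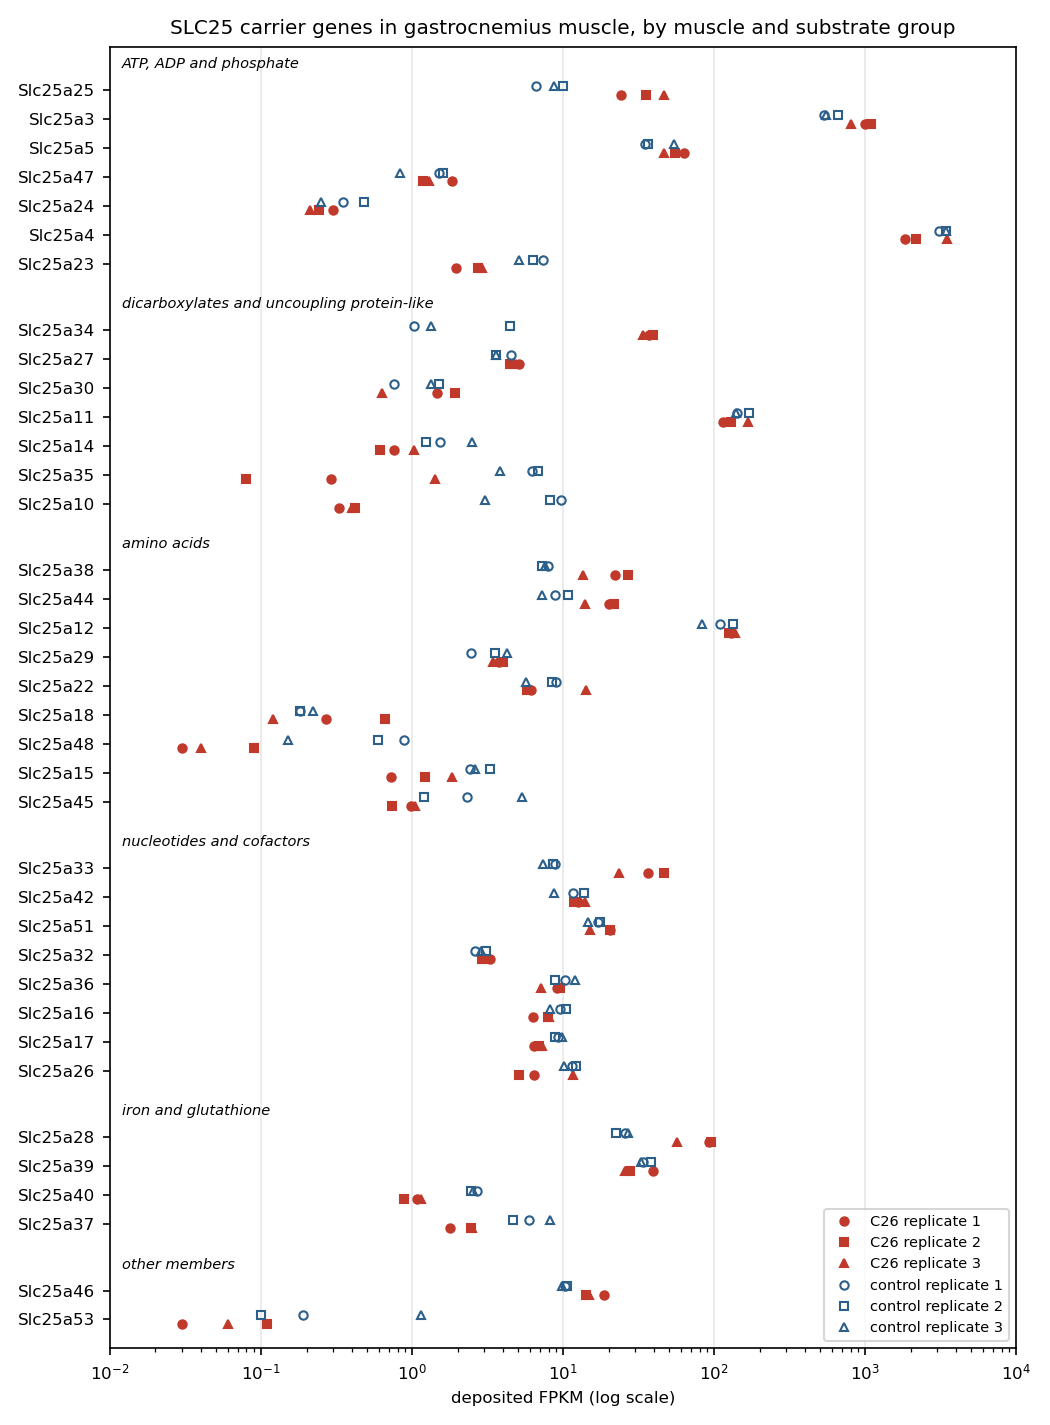
FPKM on a log axis for 37 of the 38 SLC25 genes by substrate group, with 1 filled point for each of the 3 C26 muscles and 1 open point for each of the 3 control muscles. Slc25a34 lies at 33.8 FPKM or more in every C26 muscle and at 4.44 FPKM or less in every control muscle, while Slc25a10 lies at 0.42 FPKM or less in C26 and at 3.02 FPKM or more in control muscles.

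Of the 9 carriers grouped under amino acids, Slc25a38 and Slc25a44 rose, 0 fell, and 7 were not called (median log2 fold change 0.28). Calls thus covered 22.2% of the group and 33.8% of all genes. Slc25a38 (Entrez 208638) imports glycine, the starting material of heme synthesis. It measured 21.9, 27.0 and 13.6 FPKM in C26 and 7.93, 7.23 and 7.62 FPKM in control muscles. The controls were nearly equal, and the lowest C26 muscle, replicate 3, was still above them. Its log2 fold change was 1.54 (standard error 0.23, adjusted p = 0.00632). Alas2, the erythroid enzyme that joins this glycine to succinyl-CoA, measured 4.43, 3.60 and 8.18 FPKM in C26 and 1.80, 1.47 and 1.06 FPKM in control muscles. The 4 listed erythroid markers summed to 694, 615 and 1188 FPKM in C26 and 508, 377 and 329 FPKM in control muscles. Their part in the Slc25a38 difference was not tested.

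Slc25a44 (Entrez 229517) imports branched-chain amino acids for oxidation. Its level was 20.2, 21.9 and 13.9 FPKM in C26 and 8.89, 10.7 and 7.25 FPKM in control muscles. The groups did not overlap, and the log2 fold change was 1.20 (standard error 0.24, adjusted p = 0.0130). The call was lost without either of 2 single muscles (highest adjusted p = 0.0558). Slc25a12 (Entrez 78830), the aspartate/glutamate carrier of muscle and brain, measured 130, 126 and 137 FPKM in C26 and 109, 132 and 83.1 FPKM in control muscles. Control replicate 2 lay within the C26 range, and the gene was not called (log2 fold change 0.51, standard error 0.24, adjusted p = 0.141).

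The glutamate carriers Slc25a22 and Slc25a18 were not called (log2 fold changes 0.28 and 0.27). Slc25a22 was highest in C26 replicate 3 (14.2 FPKM), and Slc25a18 was under 1 FPKM throughout. The basic amino acid carrier Slc25a29 had a log2 fold change of 0.31 (adjusted p = 0.251). The ornithine carrier Slc25a15 was lower in each C26 muscle (0.72 to 1.84 FPKM) than in each control muscle (2.42 to 3.28 FPKM) but missed the threshold (log2 fold change -0.74, adjusted p = 0.0841). It was called lower with FPKM as deposited (adjusted p = 0.0383), without C26 replicate 3 (0.0234) and without both replicate 3 muscles (0.0217). Slc25a45 had a log2 fold change of -0.89 (adjusted p = 0.115), with its highest value, 5.34 FPKM, in control replicate 3. The choline carrier Slc25a48 lay under 0.1 FPKM in C26 and between 0.15 and 0.88 FPKM in control. Its log2 fold change was -0.70 (adjusted p = 0.0710), and it was called with a pseudocount of 0.1 (-2.06, adjusted p = 0.0325).

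Of the 9 carriers of nucleotides and cofactors, Slc25a33 rose, 1 gene was called lower, and 7 were not called (median log2 fold change -0.05). Here 22.2% were called, beside 33.8% of all genes. Slc25a33 (Entrez 70556) imports pyrimidine nucleotides for the synthesis of mitochondrial DNA and RNA. It measured 36.5, 46.5 and 23.3 FPKM in C26 and 8.89, 8.52 and 7.40 FPKM in control muscles. The control muscles were nearly equal, whereas C26 replicate 3 was about midway between the other C26 muscles and the controls. The log2 fold change was 2.18 (standard error 0.24, adjusted p = 0.00338), or 4.52-fold. Its relative Slc25a36, which carries pyrimidine and guanine nucleotides, measured 9.10, 9.46 and 7.13 FPKM in C26 and 10.3, 8.78 and 12.0 FPKM in control. Those groups overlapped, and the log2 fold change of -0.05 (adjusted p = 0.790) was not called. Of the 50-base stretches of Slc25a36, 11.8% also occur in Gm13217, and 14.9% of the exon bases of Slc25a33 overlap Gm13068 on the opposite strand.

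Among the cofactor carriers that were not called, the fitted differences were small. The coenzyme A carrier Slc25a42 (log2 fold change 0.38), the NAD carrier Slc25a51 (0.38) and the folate carrier Slc25a32 (0.27) had positive values. Slc25a16 (-0.11), the peroxisomal Slc25a17 (-0.21) and the S-adenosylmethionine carrier Slc25a26 (-0.37) had negative values. Deposited FPKM of Slc25a17 were 6.40 to 7.27 in C26 and 8.87 to 9.85 in control muscles, without overlap. It was called lower when FPKM were tested as deposited (adjusted p = 0.0391) but not after rescaling to TPM (adjusted p = 0.261).

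The 4 carriers of iron and glutathione split, with Slc25a28 higher, Slc25a37 and Slc25a40 lower, and Slc25a39 not called (median log2 fold change -0.39). In this small group 75% were called, beside 33.8% of all genes. Slc25a28 (Entrez 246696), mitoferrin-2, imports iron in most tissues. It measured 91.8, 95.4 and 56.6 FPKM in C26 and 25.8, 22.3 and 26.9 FPKM in control muscles. All C26 muscles lay above all controls, again with C26 replicate 3 lowest of its group. Its log2 fold change was 1.86 (standard error 0.20, adjusted p = 0.00293). Means were 81.3 ± 21.4 FPKM in C26 and 25.0 ± 2.40 FPKM in control (SD, n = 3).

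Slc25a37 (Entrez 67712), mitoferrin-1, is the iron importer of developing red cells. It measured 1.78, 2.44 and 2.48 FPKM in C26 and 5.90, 4.62 and 8.14 FPKM in control muscles. The groups did not overlap, and the log2 fold change was -1.06 (standard error 0.20, adjusted p = 0.0116). The 4 listed erythroid markers were called in the opposite direction, higher in C26. Of the 50-base stretches of Slc25a37, 8.07% also occur in another gene.

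Slc25a39 and Slc25a40 encode related carriers that import glutathione. Slc25a39 measured 39.2, 27.9 and 25.5 FPKM in C26 and 33.9, 37.9 and 32.9 FPKM in control muscles. Its groups overlapped, and the log2 fold change was 0.02 (adjusted p = 0.958), with a sign that turned under other scalings (-0.19 with FPKM as deposited). Slc25a40 measured 1.07, 0.88 and 1.15 FPKM in C26 and 2.67, 2.46 and 2.52 FPKM in control. Both groups were narrow and apart, with a log2 fold change of -0.79 (standard error 0.15, adjusted p = 0.0106). The call was lost under quantile normalization (-0.45, adjusted p = 0.0703), and 10.3% of the 50-base stretches of Slc25a40 also occur in another gene.

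Slc25a46 and Slc25a53 were placed in none of these groups, and Slc25a46 rose whereas Slc25a53 was not called. Slc25a46, an outer membrane protein that acts in mitochondrial dynamics, measured 18.6, 14.2 and 14.8 FPKM in C26 and 10.3, 10.6 and 9.77 FPKM in control muscles. The groups did not overlap, and the log2 fold change was 0.81 (standard error 0.17, adjusted p = 0.0147). The call was lost without either of 2 single muscles (highest adjusted p = 0.0600). Slc25a53 was under 0.2 FPKM in all muscles but control replicate 3, where it reached 1.15 FPKM (log2 fold change -0.51, adjusted p = 0.250).

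Close relatives were then set against each other within each muscle, which removes the scaling between libraries. The log2 ratio of Slc25a34 to Slc25a35 was 6.84 ± 2.19 in C26 and -1.57 ± 0.98 in control muscles (SD, n = 3). In linear terms Slc25a34 was 128, 492 and 23.8 times Slc25a35 in C26 and 0.167, 0.652 and 0.348 times in control muscles. The order of the pair was thus opposite in the groups, in 3 of 3 muscles each. The size of the C26 ratios is uncertain, because Slc25a35 was at 0.29, 0.08 and 1.42 FPKM there, given to 2 decimals. About 31.3% of the Slc25a35 exon bases also overlap Rangrf. Mitoferrin-1 over mitoferrin-2 (Slc25a37 to Slc25a28) had a log2 ratio of -5.16 ± 0.60 in C26 and -2.04 ± 0.28 in control (SD, n = 3), so the excess of mitoferrin-2 was 8.71-fold larger in C26. For the pyrimidine carriers, Slc25a33 was 3.27 to 4.92 times Slc25a36 in C26 and 0.616 to 0.970 times in control. The log2 ratio was higher in C26 by 2.53 for Slc25a25 to Slc25a24 and by 1.11 for Slc25a39 to Slc25a40. Slc25a24 was at 0.21 to 0.48 FPKM over all muscles, so the size of its ratios is uncertain too.

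None of these 5 ratios overlapped between the groups. Each gave p = 0.1 in an exact two-sided permutation test, the smallest this design allows, and 0.14 after Benjamini-Hochberg adjustment over 7 pairs. For Slc25a34 to Slc25a35 and Slc25a37 to Slc25a28 this outcome was fixed beforehand. Both genes of each pair were already separate in opposite directions, so those ratios add no evidence to the single-gene calls. FPKM of single genes were separate for 53.3% of all genes. The other 2 ratios, of Slc25a4 to Slc25a5 (difference in log2 ratio -0.87) and of Slc25a23 to Slc25a24 (-0.82), overlapped between groups (exact permutation p = 0.2 for each, adjusted 0.2). No 50-base stretch of any of the 38 carriers occurs in another of them, and 28 of the 38 share none with any other gene.

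**Figure D4:**
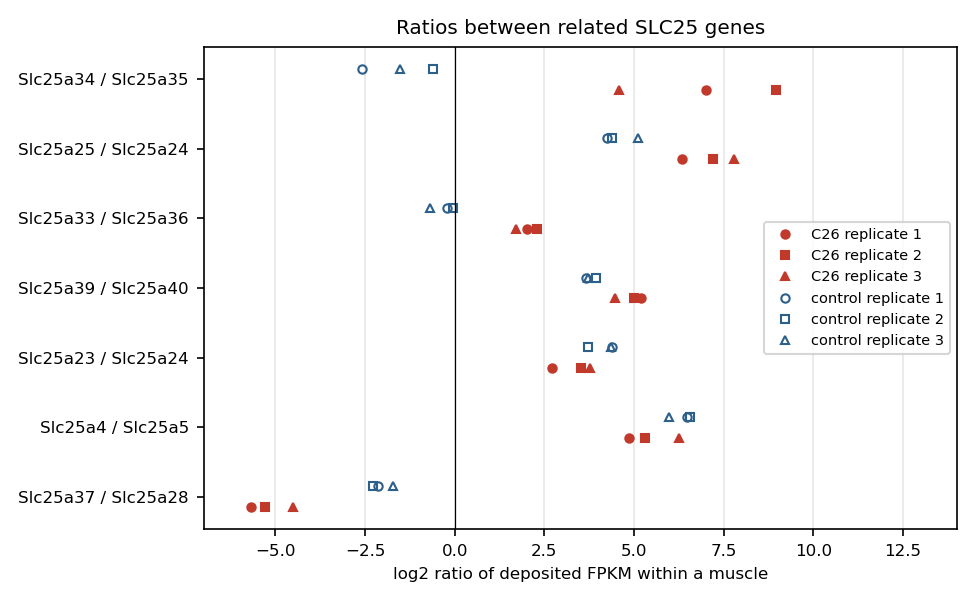
Log2 ratio of deposited FPKM within each muscle for 7 pairs of related SLC25 genes, with 1 filled point per C26 muscle and 1 open point per control muscle. In linear terms the ratio of Slc25a34 to Slc25a35 is 23.8 or more in the C26 muscles and 0.652 or less in the control muscles, and the ratios of Slc25a4 to Slc25a5 and of Slc25a23 to Slc25a24 overlap. Slc25a35 was at 0.08 to 1.42 FPKM in C26 and Slc25a24 at 0.21 to 0.48 FPKM in all muscles, so the size of their ratios is uncertain.

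Carriers reach the inner membrane through the TOM pore, the small TIM chaperones and the TIM22 complex, and 16 genes of this route were listed. Of these, Timm10, Tomm20, Tomm40 and Tomm70a were called higher, Agk was called lower and 11 were not called (median log2 fold change 0.08), where 33.8% of all genes were called in either direction. Timm10, a chaperone that shields carriers between the membranes, measured 125, 72.7 and 88.9 FPKM in C26 and 34.1, 29.9 and 35.98 FPKM in control muscles (log2 fold change 1.68, standard error 0.22, adjusted p = 0.00479). The receptors Tomm70a and Tomm20 and the pore Tomm40 had log2 fold changes of 0.82, 0.86 and 0.83. Timm22, the insertion channel itself, measured 2.33, 3.23 and 6.23 FPKM in C26 and 9.28, 9.40 and 9.15 FPKM in control muscles. It lay lower in each C26 muscle without passing the test (log2 fold change -1.02, adjusted p = 0.0567).

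Transport across the mitochondrial membranes by other proteins was read beside the carriers. Of 21 listed genes for pyruvate, calcium, serine, metal and outer membrane transport, Vdac2 was called higher (log2 fold change 0.56), Sfxn1 (-1.67) and Sfxn3 (-0.93) were called lower and 18 were not called (median -0.08). Sfxn1, a serine carrier of another fold, fell from 3.05 ± 0.393 FPKM in control to 0.447 ± 0.133 FPKM in C26 (SD, n = 3, adjusted p = 0.00193). Of 14 genes of mitochondrial content, Etfa and Etfb were called higher, 0 were called lower and 12 were not called (median 0.12). For both lists the share of all genes called in either direction was 33.8%. Mtch2, a further gene of the SLC25 fold whose symbol has no Slc25a number, was called higher (0.62, adjusted p = 0.0155), whereas Ucp2 and Mtch1 were not called.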

How the data were processed

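RNA from the gastrocnemius of 3 C26 and 3 control mice was sequenced on a BGISEQ platform with single-end reads of 50 bases. The deposited FPKM were made by the authors, who discarded low-quality, adaptor and rRNA reads, aligned the rest with bowtie2 to GRCm38.p5 and estimated levels by RSEM. The submitters' processing notes name HISAT2 2.0.4, Bowtie2 2.2.5, RSEM 1.2.12 and the build mm9, so the build is uncertain. FPKM are given to 2 decimals, all 13363 listed genes are above 0 in every muscle, and the depth is unknown. The study states among its limits that each gene was represented by its highest transcript variant.

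Groups were taken from the sample labels. The extraction text of the labels names gastrocnemius muscle and, in its next words, THP-1 cells, and all 15 muscle markers were listed in every sample. Symbols were matched to 13327 Entrez identifiers. TPM were computed from the FPKM, divided by TMM factors (30% of log ratios and 5% of levels trimmed) and tested as log2(TPM + 1) with limma 3.58.1 (R 4.3.3) and Benjamini-Hochberg adjustment over all genes, called under 0.05. The test was checked on simulated data. Sums and ratios were compared by exact permutation over muscles. Other settings were an intensity trend in limma, a block for the replicate number, quantile normalization, the deposited FPKM on a log2 scale with no rescaling, TPM with no TMM factor, only genes whose mean TPM was 1 or more, a pseudocount of 0.1, and the omission of single muscles.

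The members and lists were chosen with earlier results of these data known. Every carrier was to be named, but the result of 1 carrier is not reported here, although it is included in the counts and sums. Values in each muscle were given for called carriers with a log2 fold change of at least 1, the 5 most abundant carriers and both genes of each pair, and other lists were named by up to 5 called genes. Pairs with Slc25a13 were not analysed here. Shared reads were judged from 50-base stretches of GENCODE M21 transcripts.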

Additional observations from a re-analysis of the deposited data

How the results depend on the processing

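Of the 14 called carriers, 7 (Slc25a10, Slc25a25, Slc25a28, Slc25a33, Slc25a34, Slc25a37 and Slc25a38) were called in the same direction in every alternative fit, and none of the 14 changed sign. With single muscles omitted, the fits gave 5 to 10 carriers higher (1127 to 3311 of all 13363 genes), 3 to 8 lower (669 to 2160 of all genes), 1 to 8 import machinery genes changed (5 with all muscles) and 4 to 9 other transport and content genes, here with Ucp3, Mtch2 and the other SLC25-fold genes, changed (7 with all muscles), and 6 called carriers lost their call in 13 fits. Without both replicate 3 muscles, 10 carriers were lower, and 8 import genes and 12 other transport and content genes changed (3780 of all genes higher and 2805 lower). Slc25a26 and Slc25a51 were called in that fit and without C26 replicate 3, Slc25a48 in that fit and without control replicate 3, Slc25a14 in that fit, and Slc25a45 without control replicate 2. The replicate numbers did not pair the samples, with correlations of same-numbered deviations of -0.0394, -0.0843 and -0.112. Under the replicate block 7 carriers were higher and 5 lower (1839 and 1235 of all genes), without Slc25a46 (adjusted p = 0.0501) and Slc25a23 (0.0618), and 4 other transport and content genes were called. With FPKM as deposited, the median log2 fold change of the carriers was -0.0303, and the log2 difference of the summed family level, 0.11 on the TPM scale, was -0.11. That difference was -0.0721 to 0.231 when single muscles were omitted. The cause was not tested.

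Carriers that changed sign were all uncalled. Slc25a39 was at -0.0825 with a mean TPM of at least 1, -0.19 with FPKM as deposited, -0.38 under quantile normalization and -0.16 to 0.18 without single muscles. Slc25a11 was at -0.0319, -0.15 and -0.36 under those settings, -0.0370 to 0.229 without single muscles and -0.12 without both replicate 3 muscles. Slc25a24 was at 0.19 under quantile normalization and -0.201 to 0.00517 without single muscles. Slc25a36 (-0.10 to 0.11), Slc25a22 (-0.0736 to 0.526), Slc25a30 (-0.00697 to 0.536) and Slc25a16 (-0.248 to 0.0260) also changed sign without single muscles. Without both replicate 3 muscles, Slc25a36 was at 0.19 and Slc25a22 at -0.29. The read depth is unknown, so no counting error can be given for low genes such as Slc25a24, Slc25a48 and Slc25a53.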
